A study of Mus musculus with 3 samples.

Results

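The expression of untreated mouse cavernous cells was described from a single microarray, the normal glucose array of a series of 3. The cells are labelled as primary endothelial cells of the penile corpus cavernosum, the erectile tissue, from C57BL/6 mice. They were grown in Medium 199 with serum, heparin and vascular endothelial growth factor A, and then held for 48 h at 5 mmol glucose as labelled. RNA of 3 samples was pooled onto this array, so it has no replicate, no spread between cultures and no test, and the labels used here do not state the age of the mice. The other arrays of the series, with high glucose and high glucose with DKK2, were not compared with it. All 39425 probes for mouse transcripts were ranked by their processed signal, the background-corrected brightness in scanner units. Of these, 27506 could be tied to 1 named gene, which gave 20885 genes.

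Endothelial cells line blood vessels and are recognised by junction and receptor genes such as Pecam1, Cdh5, Kdr and Tek. In erectile tissue they lie on smooth muscle cells, pericytes and fibroblasts. They release nitric oxide, which relaxes smooth muscle through cyclic GMP and lets the tissue fill with blood. Cultures started from such tissue can hold several of these cell types, so the markers of each were read side by side.

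A gene was given the signal of its brightest probe above background and placed by its percentile among all probes. "Above background" means that the scanner flagged at least 50% of the probe's spots as well above background. A gene was called bright from the 90th percentile of probes, a signal of 5966, and dim where it was above background and under the median probe, 101.8. Of the 20885 genes, 16875 (80.8%) were above background, 2449 (11.7%) were bright, 9846 were in between, 4580 were dim and 4010 (19.2%) were not above background. Among the genes of the lists described here, Glo1 at 6119 lay just inside the bright class and Mcm7 at 5948 just outside it. These shares are the yardstick for every gene group that follows, and the median gene lay at percentile 59.8. Olfactory and vomeronasal receptor genes, which sensory neurons of the nose use, give a further yardstick. Of 1323 such genes 412 (31.1%) were above background, and counts of genes above background are to be read beside that share. Among the 1323, 0 were bright, 47 were in between and the highest signal was 2135. Their median percentile was 15.0.

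**Figure D1:**
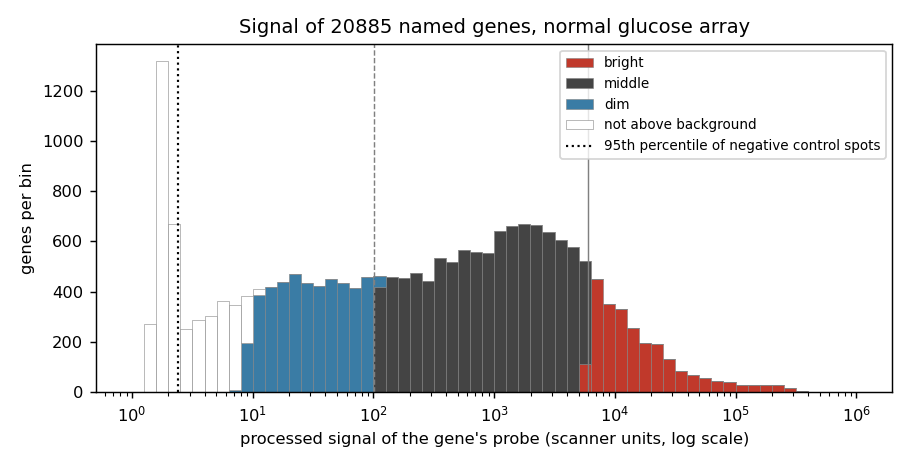
Histogram of the processed signal of 20885 named genes on the normal glucose array, on a log scale. Colours give the class, the dashed line is the median probe (101.8), the solid line the 90th percentile (5966) and the dotted line the 95th percentile of negative control spots (2.38); a narrow peak of genes not above background sits at the signal of the negative controls and a broad shoulder of middle and bright genes lies to its right.

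The signal of the probes ran from 1.502 to 396455. The median of 153 negative control spots was 1.804. Of these spots 4 were flagged above background, the highest at 134.8 and the second highest at 27.76. The lowest signal flagged above background was 7.566 and the highest not so flagged was 11.71, so both kinds occur in that narrow range. The brightest 10% of probes, 3942 in number, carried 86.99% of the summed signal. The scanner's error model gave a median error of 10% of the signal for bright probes, 11.6% for dim ones and 92.5% for probes not above background. Probes spotted repeatedly had a median SD of 0.05 log2 units between spots where bright and 0.22 where dim. Both errors are technical. Probe choice was a larger source of difference: for 4586 genes with exactly 2 probes, the signals of both differed by a median of 2.14 log2 units, and in 16.0% of them only 1 probe was above background. Signals therefore place a gene's probe in the array's ranking and were not converted to amounts of RNA. The dimmest probe's signal is given beside a gene where it lay over 4 log2 units under the brightest. No spot was saturated.

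Among the 30 brightest named genes, 8 were cytosolic ribosomal protein genes, including Rpl41 with a signal of 308156 and Rps14 with 264438. The growth-related protein gene Tpt1 had a signal of 374399 (193823 on its lowest probe), Actb, the beta-actin gene, 324330, and Ftl1, a ferritin light chain gene, 302879. Timp2, an inhibitor of matrix metalloproteinases, read 348028 and the collagen-binding proteoglycan gene Dcn read 268191. The small calcium-binding protein genes S100a6 and S100a4 read 249298 and 242950, and Lgals1, the galectin 1 gene, 226425. For a further group among the 30 the probes disagreed. Of the 19 with more than 1 probe, 11 had probes over 4 log2 units apart. Of these, Actg1 and Medag were bright on all probes, with 7323 and 14732 on their dimmest. The top gene, Glrx2, a mitochondrial glutaredoxin gene, is also among the 11, at 396455 on its brightest probe and 118.8 on its dimmest. Likewise the ETS factor gene Elk1 read 288476 and 33.1, Gcm1, a placental transcription factor gene, read 259659 and 13.87, and Cavin1, a caveolar coat gene, read 224923 and 128.1.

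Endothelial identity genes were nearly all measured but few were bright. Of 35 genes, 32 were above background, 2 were bright, 15 were in between, 15 were dim and 3 were not above background. Their median percentile was 49.5, beside 59.8 for all named genes. The bright ones were Cd34, a surface sialomucin that fibroblasts and stem cells also carry, at 37308 ± 3731 (scanner error), and Ramp2, an adrenomedullin co-receptor, at 7174 ± 717.4. The second Cd34 probe read 457.4, and with the median over probes 1 gene of the list was bright. With a minimum signal of 100, 17 of the 35 genes counted as above background. Kdr, the main VEGF receptor gene of endothelium, read 3648 ± 364.8 on 1 probe and 59.92 on the other. Eng, a TGF-beta co-receptor gene that mesenchymal cells share, read 2456. Next came the sphingosine phosphate receptor gene S1pr1 with a signal of 1613, and Egfl7, which encodes a factor secreted by endothelium, with 1351.

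The junction and lineage genes by which endothelium is usually defined lay lower. Cdh5, the VE-cadherin gene, read 194.5 ± 19.5 and Pecam1, the CD31 gene, read 134.6 ± 13.6, both between the median and the 90th percentile of probes. Nos3, the endothelial nitric oxide synthase gene, read 97.42, and Vwf, the von Willebrand factor gene, 64.54. Tek, which encodes the angiopoietin receptor Tie2, read 45.69, and its partner Tie1 read 9.85 ± 2.15, the lowest of the list above background. All 4 of these were dim. Among the genes not above background were Erg, an ETS factor gene of endothelium, and Emcn, the endomucin gene, whose signal of 9.89 lay within the range where flagged and unflagged probes mix. The third was Adgrl4. In bulk RNA, fewer cells of a type and less RNA per cell cannot be told apart, and the share of endothelial cells in the culture was not measured.

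Genes of endothelial subtypes were read next. All 12 arterial genes were above background, 0 were bright and their median percentile was 44.5. Efnb2, the ephrin B2 gene, read 3081 on 1 probe and 30.54 on another, and Unc5b, a netrin receptor gene, read 2838. The Notch ligand gene Dll4, a marker of arterial and sprouting endothelium, read 18.85. Of 6 venous genes all were above background with a median percentile of 67.2. They were led by the neuropilin gene Nrp2 at 15937 and followed by Ephb4 at 2741 and the venous fate factor gene Nr2f2 at 2099. Ackr1, Selp and Aplnr, with narrower use in venous endothelium, read 141.8, 51.0 and 15.25. Of 6 lymphatic genes only 2 were above background. Podoplanin (Pdpn), which fibroblasts also make, read 56573 (1875 on its dimmest probe), while Flt4, the VEGF receptor 3 gene, was dim at 20.75. Prox1, the lymphatic master factor gene, was at 1.83, and Lyve1, Mmrn1 and Reln were not above background either.

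Fibroblast genes stood at the bright end of the array. All 21 were above background, 15 were bright and the median percentile was 96.6. Dcn read 268191 ± 26819, Col1a2, a chain of type I collagen, 177021 ± 17702, and Vim, the intermediate filament gene of mesenchymal and endothelial cells, 137479. Gsn, the gelsolin gene of actin turnover, read 118851, and the collagen genes Col3a1 and Col1a1 67433 and 46391. Pdgfra, the platelet-derived growth factor receptor that defines many fibroblasts, read 21058. The dimmest were Postn, the periostin gene, at 339.2, Clec3b at 887.8 and Tcf21, a factor gene of some fibroblast lineages, at 21.45. Only Tcf21 was under the median probe.

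Mural cell genes were spread over the whole ranking. All 15 smooth muscle genes were above background, of which 5 were bright, 6 in between and 4 dim, with a median percentile of 70.1. Acta2, the smooth muscle actin gene that myofibroblasts also use, read 49587 ± 4959, Cald1 20100, Tagln 18222, Myl9 16153 and Tpm2 16049. Genes of the contractile apparatus lay in all classes. In between were Smtn, the smoothelin gene, at 5692, Cnn1, the calponin gene, at 716.7 and Mylk, the myosin light chain kinase gene, at 298.5. The 4 dim genes were at the other end. Des, the desmin gene, read 32.82, Myh11, the smooth muscle myosin gene, 15.13, Myocd, the myocardin gene that drives the programme, 14.15, and Lmod1 12.41. Of 11 pericyte genes 10 were above background, of which 4 were bright, 4 in between and 2 dim, with a median percentile of 79.7. Pdgfrb, which pericytes and fibroblasts share, read 22765, Anpep, an aminopeptidase gene, 12338 and Cspg4, the NG2 proteoglycan gene, 8035. Mcam read 13770 on 1 probe and 8.96 on another. Rgs5, a regulator of G protein signalling used to mark pericytes, was dim at 22.27, and the potassium channel gene Kcnj8 was not above background. Taking the median over a gene's probes in place of the brightest moved the pericyte median to percentile 62.8.

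**Figure D2:**
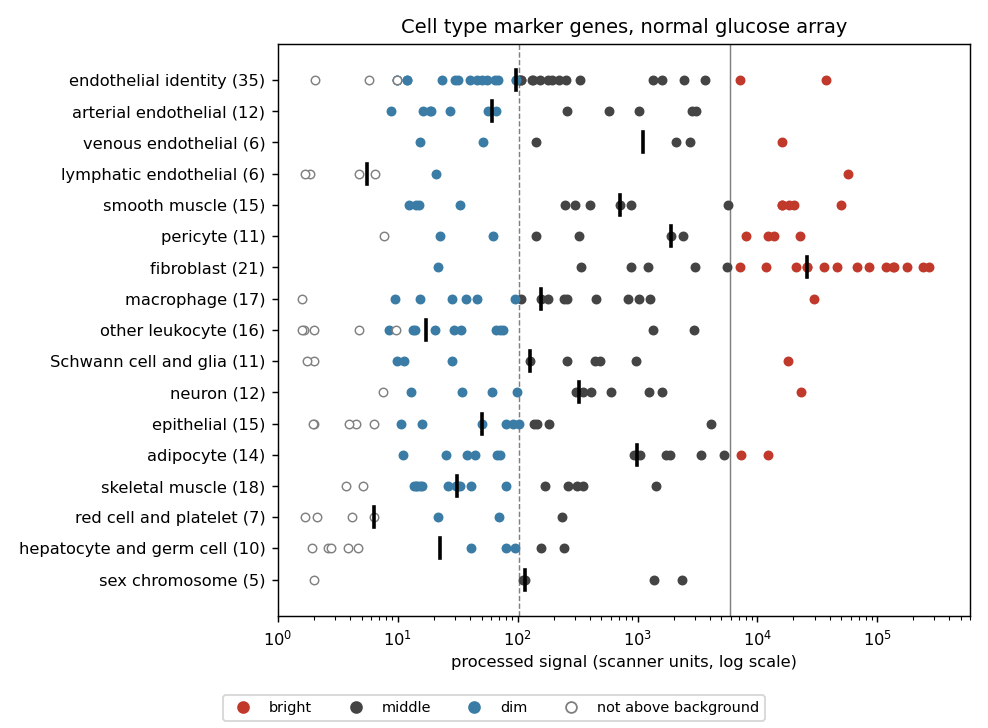
Processed signal on a log scale of the genes in each cell type list on the normal glucose array, 1 point per gene, with the number of genes on the array in brackets. Black bars are list medians, open points are genes not above background, and the dashed and solid lines are the median (101.8) and the 90th percentile (5966) of probes; the fibroblast list lies furthest to the right, with 15 of 21 genes past the solid line, and the endothelial list is spread around the dashed line.

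No list of blood or immune cells had more than 1 bright gene. Of 17 macrophage genes 16 were above background, 1 was bright, 9 were in between and 6 were dim, and the median percentile was 54.8. The bright one, the integrin gene Itgam, read 29437 on 1 of its 3 probes and 32.79 on its dimmest, and with the median over probes 0 were bright. Csf1r, the receptor of the macrophage growth factor, read 1270 on 1 probe and 34.6 on another, and Cd14, an endotoxin co-receptor, 1038. The lysozyme gene Lyz2 read 156.2, and Adgre1, the F4/80 antigen gene, 94.48. Of 16 genes of other leukocytes 11 were above background, 9 of them dim, with a median percentile of 30.2. Ptprc, the CD45 gene of nearly all leukocytes, read 29.64 ± 3.38. The T cell genes of the list went both ways. Cd4 read 2938 on 1 probe and 44.66 on its dimmest, and Cd3e read 1357. Cd8a was dim at 8.38, and Cd3d was not above background at 1.63. Of 7 genes of red cells and platelets 3 were above background, with the platelet factor gene Pf4 highest at 235.3.

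Genes of other tissues were low with some exceptions. Of 15 epithelial genes 10 were above background and 0 were bright. Epcam, Cdh1, the E-cadherin gene, and Krt8 were not above background, while Krt18, its usual keratin partner, read 79.47 and Trp63, the basal cell factor gene, 4142 on 1 probe and 49.04 on its dimmest. Of 18 skeletal muscle genes 16 were above background and 0 were bright, with a median percentile of 36.8. Acta1, the skeletal actin gene, read 1425 and the muscle creatine kinase gene Ckm 14.06. Myod1 and Myog, the factor genes of muscle commitment, read 31.49 and 30.74. Of 10 hepatocyte and germ cell genes 5 were above background, and Alb, the serum albumin gene, was not.

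Fat cell and nerve genes lay higher than those. All 14 adipocyte genes were above background with a median percentile of 73.1. The fatty acid binding protein gene Fabp4, which some endothelial cells also express, read 12303 ± 1230, the lipid droplet gene Plin4 7325, and Pparg, the factor that drives fat cell formation, 5292. Adipoq, the adiponectin gene, read 936.4 ± 93.7 and the carbonic anhydrase gene Car3 1053, but leptin (Lep) read 11.07 and Cidec, a lipid droplet gene, 25.13. Of 11 Schwann cell and glia genes 9 were above background and 1 was bright, Pmp22, which many mesenchymal cells also express, at 17943. The Schwann cell factor gene Sox10 read 127.4. Of 12 neuron genes 11 were above background and Snap25, a synaptic fusion protein gene, was bright at 22946. The Y-linked genes Eif2s3y and Ddx3y read 2332 and 1362, and Xist, the transcript of the inactive X chromosome, was not above background at 2.01. The tissue of origin is male.

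The pathways of blood vessel growth came next, ligands first. All 10 VEGF ligand and receptor genes were above background and their median percentile was 85.6. Vegfd, which encodes a ligand of VEGF receptor 3, was bright at 49713 ± 4971. Vegfa, the main angiogenic ligand, read 3595 ± 359.5 (826.5 on its other probe), Vegfc 3576 and Vegfb 3467. Among the receptors, the co-receptor genes Nrp2 and Nrp1 read 15937 and 1023, Kdr 3648, Flt1, the VEGF receptor 1 gene, 221.5 and Flt4 20.75. Pgf, the placental growth factor gene, read 104.0. Of 8 angiopoietin and Tie genes all were above background. Angpt1, the vessel-stabilising ligand that mural cells mostly make, read 2190 ± 219.1. Angpt2, which endothelium makes when vessels remodel, read 327.0 ± 32.7. Their receptor gene Tek was dim at 45.69. Angptl4, a secreted inhibitor of lipoprotein lipase, and Svep1, a large matrix protein gene, were bright at 19291 and 18356.

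Genes of nitric oxide and cyclic GMP signalling were uneven. Of 22 genes 18 were above background and 2 were bright, with a median percentile of 67.2. The bright ones, Ass1 (22812), which recycles citrulline to arginine, and Ddah2 (12755), which removes a natural inhibitor of the synthases, act on the supply side. Of the synthases, Nos2, the inducible form, read 234.0, Nos3 read 97.42 and Nos1, the neuronal form, was not above background. Downstream, Gucy1a2 read 827.0 (113.7 on its dimmest probe), Gucy1a1 read 17.11 and Gucy1b1 was not above background. They encode subunits of the nitric oxide receptor guanylate cyclase. Prkg1, the cyclic GMP-dependent kinase gene of smooth muscle, read 1315 and Pde5a, the phosphodiesterase that sildenafil inhibits, 335.9 ± 33.6. Both arginase genes, Arg1 and Arg2, were not above background. Cav1, the caveolin gene whose product restrains Nos3, read 1075.

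Other vasoactive systems held bright members as well. Of 18 endothelin and vasoactive peptide genes 16 were above background and 3 were bright. They are Ace, the angiotensin-converting enzyme gene, at 26302, adrenomedullin (Adm) at 12625 and Ramp2. The adrenomedullin receptor partner Calcrl was dim at 9.88. The angiotensin receptor gene Agtr2 read 3976, Ednra, the endothelin receptor of smooth muscle, 1270, and Vip, a nerve peptide gene, was not above background. Of 17 prostaglandin genes 16 were above background and 4 were bright: the prostaglandin E synthase genes Ptges3 (21592) and Ptges (18454), the prostacyclin synthase gene Ptgis (16637), and Ptgs1 (8825), the constitutive cyclooxygenase. Ptgs2, the inducible form, read 2747. Ptges3 and Ptges had a dimmer probe at 918.6 and 1338, and with the mean over probes above background 2 genes of the list were bright in place of 4. Of 20 genes of contraction control 16 were above background. The small GTPase gene Rhoa, which raises contractile tone, read 14965 and the kinase gene Rock2 5022. Of the alpha-adrenergic receptor genes, Adra2a read 5096, Adra1d 1061 and Adra1b 1046, while Adra1a was not above background. With the median over probes 1 gene of this list was bright in place of 3. All 9 steroid receptor and enzyme genes were above background, with the glucocorticoid receptor gene Nr3c1 bright at 10622, Esr2 at 4820 and Esr1 at 92.12 (5.09 on its dimmest probe). With the median over probes Nr3c1 was not bright and the list had 0 bright genes.

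Dickkopf proteins and Wnt receptors form the system on which the protein added in the study acts. DKK2 binds the Wnt co-receptors LRP5 and LRP6 and, together with Kremen proteins, takes them off the surface. The untreated culture carried its own Dkk2 signal. Of 24 genes 20 were above background and 6 were bright, and Dkk2 was among them at 13644 ± 1364. Dkk3, a divergent family member that does not act on these co-receptors in the same way, read 27738, while Dkk1 and Dkk4 were not above background at 4.34 and 3.46. Both co-receptor genes were measured, Lrp6 at 13488 (828.9 on its other probe) and Lrp5 at 2772 ± 277.3. Kremen1 read 4791 on 1 probe and 32.78 on the other, and Kremen2 was not above background. Of the Frizzled receptors, Fzd1 read 17023 and Fzd2 7139 (417.4 on its dimmest probe), and Ryk, a Wnt co-receptor with a kinase-like domain, 8674.

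Wnt ligands were fewer at the bright end. Of 21 genes, which include the export factors, 17 were above background and 2 were bright, with a median percentile of 34.0. With normexp background correction 0 were bright, and with a minimum signal of 100 only 8 were above background. Wls, which carries Wnt proteins to the surface, read 7251 and Wnt5a, a ligand that mostly signals without beta-catenin, 6709 ± 670.9. Porcn, which attaches the lipid of Wnt proteins, read 1849 and Wnt5b 1064. The beta-catenin-activating ligand genes Wnt3a and Wnt3 were not above background, nor were Wnt2b and Wnt10b. Wnt1 read 945.6 on 1 probe and 14.1 on its dimmest. Of 11 secreted antagonists and R-spondins 10 were above background. The Wnt deacylase gene Notum was bright at 6795, Sfrp2 read 4225, the R-spondin genes Rspo3 and Rspo2 2858 and 1882, and Wif1 11.3. Of 20 core and target genes 19 were above background. Ccnd1, the cyclin D1 gene, read 28010 and Ctnnb1, the beta-catenin gene, 10737. Axin2, a widely used target of the pathway, was dim at 25.46 and Sp5, also a target, was not above background.

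Notch and TGF-beta genes lay apart on the ranking. Of 17 Notch genes 16 were above background and 0 were bright, with a median percentile of 47.6. Rbpj, the nuclear effector, read 5549 and the receptor genes Notch1, Notch2 and Notch3 read 3756, 2877 and 1896, though the dimmest Notch1 and Notch2 probes read 12.91 and 40.96. All 30 TGF-beta and BMP genes were above background, 12 were bright and the median percentile was 85.7. The latent TGF-beta binding protein genes Ltbp2 and Ltbp1 read 26121 and 17471. Bmp4, a ligand, read 24654 on 1 probe and 2.80 on the other, and Grem1, a BMP antagonist gene, 18721. The receptor gene Tgfbr3 read 16644 and Ccn2, a target of the pathway, 16041. Nog, the noggin gene, read 40.34.

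Matrix genes were among the brightest of all groups. All 42 genes of elastic fibres and other matrix were above background and 26 were bright, with a median percentile of 94.6. Timp2 read 348028, Sparc, a collagen-binding matricellular protein gene, 193079 and Fn1, the fibronectin gene, 135861. Thbs1, the thrombospondin 1 gene, read 103604. Tnc, the tenascin C gene, and the gelatinase gene Mmp9 were dim at 62.02 and 16.99. Of 27 collagen genes 26 were above background and 9 were bright. Behind the type I and III chains came Col6a1 at 37559 and Col6a3 at 29446, which form beaded filaments, and Col16a1 at 22958 with a dimmer probe at 98.14. The basement membrane gene Col4a3 was not above background. Dcn, Fn1, Mfap5, Lum, Col1a1, Col1a2 and Col3a1 are in the fibroblast list too, and which cells carried the matrix transcripts was not tested.

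Adhesion genes were more moderate. Of 19 integrin genes 18 were above background and 1 was bright, Itgb5 at 25085, whose product pairs with the alpha v chain to bind vitronectin. Itgb1, the shared beta chain, read 4616. Of 20 junction genes 17 were above background and 2 were bright: Ctnnd1, the p120 catenin gene, at 9681 and Cdh11, a cadherin gene of mesenchymal cells, at 8555. With the median over probes 1 junction gene was bright in place of 2. Cdh13 and Cdh2, the T- and N-cadherin genes, read 4126 and 3685. The tight junction genes Ocln and Cldn3 were not above background, nor was the connexin gene Gjb2. The gap junction gene Gja5, typical of arterial endothelium, read 18.52.

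Inflammatory and clotting genes followed. Of 29 adhesion molecule and chemokine genes 24 were above background and 5 were bright. Vcam1, which binds leukocytes, read 28743 (1701 on its dimmest probe), and Csf1, the macrophage growth factor gene, 28141. Cxcl12, a homing chemokine of stromal cells, read 18204, Cx3cl1 11261 and Ccl8 10428. The selectin gene Sele, which endothelium makes when activated, was dim at 9.83, and the cytokine genes Il1a and Il1b were not above background. All 17 haemostasis genes were above background, with Anxa2 at 131503 and S100a10 at 60757, whose products together hold the plasminogen activator system at the surface. The thrombin-binding receptor gene Thbd read 10683. All 25 interferon response genes on the array were above background and 11 were bright, with B2m, the light chain of class I molecules, at 116428 and the antiviral membrane genes Ifitm3 and Ifitm2 at 94173 and 62718. Rsad2, an antiviral enzyme gene, was dim at 89.66.

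**Figure D3:**
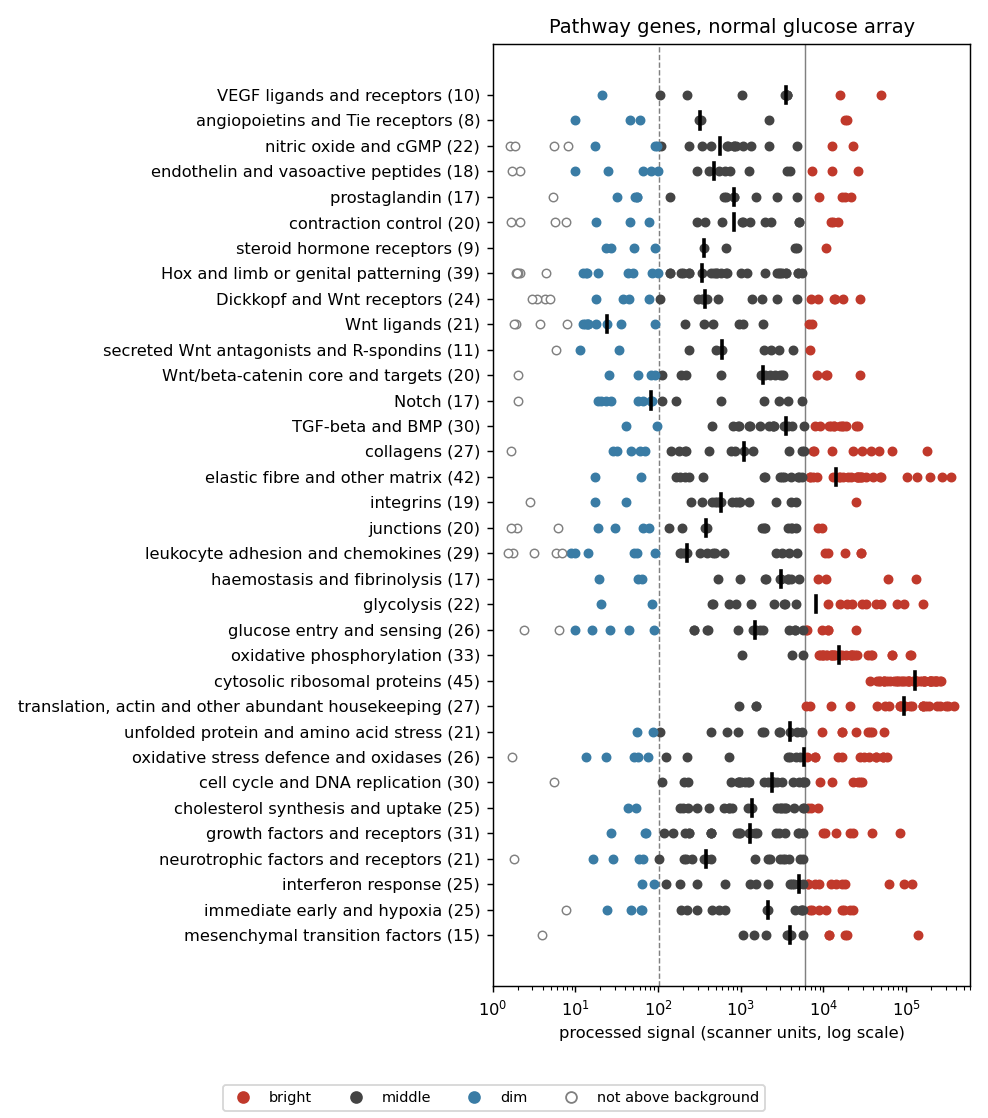
Processed signal on a log scale of the genes in each pathway list on the normal glucose array, 1 point per gene, with the number of genes on the array in brackets. Black bars are list medians and open points are genes not above background. The dashed and solid lines are the median (101.8) and the 90th percentile (5966) of probes. All 45 ribosomal protein genes of the list lie past the solid line, while the Wnt ligand and Notch medians lie under the dashed line.

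Energy metabolism genes were bright in their common forms. All 22 glycolysis genes were above background, 11 were bright and the median percentile was 90.9. Gapdh read 158517 (4747 on its dimmest probe), Eno1, the enolase gene, 94403, Aldoa, an aldolase gene, 78016, and Gpi1 49508. The liver pyruvate kinase gene Pklr was dim at 20.53, as was the lactate transporter gene Slc16a1 at 83.11. All 33 oxidative phosphorylation genes were above background and 30 were bright, with a median percentile of 94.9. The cytochrome oxidase genes Cox6a1 and Cox8a read 115097 and 112853. The 45 ribosomal protein genes of the list that are on the array were all bright, from Rpl5 at 36897 to Rps14 at 264438. Rpl41, which the list leaves out, read 308156. Of all genes named Rpl with a number 48 of 52 were bright, and of those named Rps 33 of 45. A match by name can also take in genes that are not ribosomal proteins, such as the Rps6k kinase genes. Of the 27 housekeeping genes 24 were bright, and Tbp, the TATA-binding protein gene, was the lowest at 956.6.

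Genes of glucose handling were read at the 5 mmol of the normal glucose medium. Of 26 genes of glucose entry and sensing 24 were above background and 6 were bright. Slc2a1, the basal transporter gene GLUT1, was bright at 11350 ± 1135. Slc2a4, the insulin-responsive GLUT4 of muscle and fat, was dim at 43.96, and Slc2a2, the liver and islet form, was not above background. Txnip, a glucose-induced inhibitor of thioredoxin, read 9585 ± 958.5 (1456 on its other probe). The pentose phosphate genes Tkt and G6pdx read 24664 and 11307. Akr1b3, the aldose reductase of the polyol route, read 6306, and Glo1, which detoxifies methylglyoxal, 6119. Ager, the receptor for glycated proteins, was dim at 16.04.

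Stress and redox genes were measured nearly in full. All 21 genes of the unfolded protein and amino acid response were above background and 8 were bright. The chaperone genes Hsp90b1 and Hspa5 read 54194 and 36145, and the stress factor gene Atf4 38367 with a dimmer probe at 360.8. Sdf2l1 and Pdia4 were dim at 56.15 and 85.64. Of 26 redox genes 25 were above background and 13 were bright. Gpx4 and Gpx1, the glutathione peroxidase genes, read 59433 and 51906, Prdx1 51789 (1742 on its dimmest probe) and Sod1, the cytosolic superoxide dismutase gene, 42958. Hmox1, the inducible haem oxygenase gene, read 42667 (1096 on its dimmest probe). Of the superoxide-producing oxidases, the membrane subunit gene Cyba was bright at 35347 (3159 on its dimmest probe). The catalytic genes Nox4 and Nox1 read 220.3 and 23.17, and the cytosolic subunit gene Ncf1 13.53.

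Cell cycle genes held both growth and arrest members at the bright end. Of 30 genes 29 were above background and 6 were bright, with a median percentile of 82.1. The cyclin D genes Ccnd1 and Ccnd2, which push cells into the cycle, read 28010 and 22653. The inhibitors Cdkn1a (p21), Cdkn2a (p16 and Arf) and Cdkn2b (p15) read 29446, 26145 and 12609, with dimmer probes at 512.3, 3100 and 1542. Rrm2, which makes DNA precursors in S phase, read 9167. Aurkb, a mitotic kinase gene, was not above background. All 25 cholesterol genes were above background and 3 were bright: Scd2 at 8492, Ebp at 7050 and Fdps at 6542.

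Growth factor and nerve factor genes differed in how many were bright. All 31 growth factor and receptor genes were above background and 7 were bright. Igfbp6, which binds insulin-like growth factor 2, read 84832, the receptor gene Fgfr1 38492 (1336 on its dimmest probe) and Igfbp3 14243. Pdgfa, a ligand for Pdgfra, read 10461. Igf2 and the ligand genes Egf and Areg were dim at 68.58, 71.07 and 26.78. Of 21 neurotrophic genes 20 were above background and 0 were bright. The guidance genes Slit2 and Slit3 read 5652 and 5212 and Bdnf 3438.

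Transcription factor genes of mesenchymal cells were well represented. Of 15 genes of mesenchymal transition 14 were above background and 5 were bright, or 3 with the median over probes. The list does not hold factor genes only. It also has the cadherin genes Cdh1 and Cdh2, and Vim, which was bright at 137479. Prrx2 and Prrx1, homeobox factors of limb and connective tissue mesenchyme, read 19460 and 11731. Snai2, a repressor of E-cadherin, read 11528 and Tcf4 18443 (1051 on its dimmest probe), while Cdh1, the E-cadherin gene, was not above background at 3.92. Of 25 immediate early and hypoxia genes 24 were above background and 8 were bright. The AP-1 genes Jund and Jun read 23050 and 17605, Klf6 20956, Ddit4, a stress-induced inhibitor of mTOR, 16983, Fosl2 10868 (72.02 on its dimmest probe) and the factor gene Klf4 8904. Among the 105 transcription factor genes in the lists, the 10 brightest were Atf4, Jund, Klf6, Prrx2, Tcf4, Jun, Nfe2l2 (16963), the master factor of redox defence, Smad3 (13589, and 198.2 on its dimmest probe), Prrx1 and Snai2. Of the 10, Prrx1 is in the fibroblast list and none is in the endothelial list. Few genes of either list encode transcription factors, so nothing is drawn from this overlap. Among the 118 secreted ligand genes in the lists, the 10 brightest were Vegfd, Csf1, Dkk3, Bmp4, Angptl4, Grem1, Cxcl12, Ccn2, Dkk2 and Adm.

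Hox genes, which set position along the body, lie in 4 clusters, and those with high paralog numbers mark the hind end, limbs and genital region. Of 39 genes of Hox and limb or genital patterning 34 were above background and 0 were bright, with a median percentile of 62.4. Tbx4, a hindlimb and genital factor gene, read 5445 ± 544.5, Pitx1, its hindlimb partner, 4906, and Hoxd13, needed for digits and the genital tubercle, 4852 ± 485.2. Isl1, a factor of the early genital and limb buds, read 3545. Hoxa11, a gene of limbs and the genital tract, read 3109 and Hoxa13 504.2 ± 50.5 (113.9 on its other probe). Shh, the signal of the genital epithelium, was not above background. A view over all 39 Hox genes on the array was added after these values were seen. The yardstick for counts above the median probe is all named genes, of which 11.73% were bright and 47.14% in between. In cluster D the 5 genes with paralog numbers 9 to 13 all lay above the median probe, from 198.5 to 4852. Of the 4 with numbers 1 to 8, 2 did. In cluster A the 4 genes of numbers 9 to 13 lay above the median probe, from 191.4 to 3109, beside 3 of 7 with lower numbers. Cluster C had 4 of 5 and 2 of 4 genes above it. Cluster B was the lowest, with 0 of 2 and 2 of 8 above the median probe and a highest signal of 233.7. Whether this pattern belongs to 1 cell type of the culture was not tested.

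**Figure D4:**
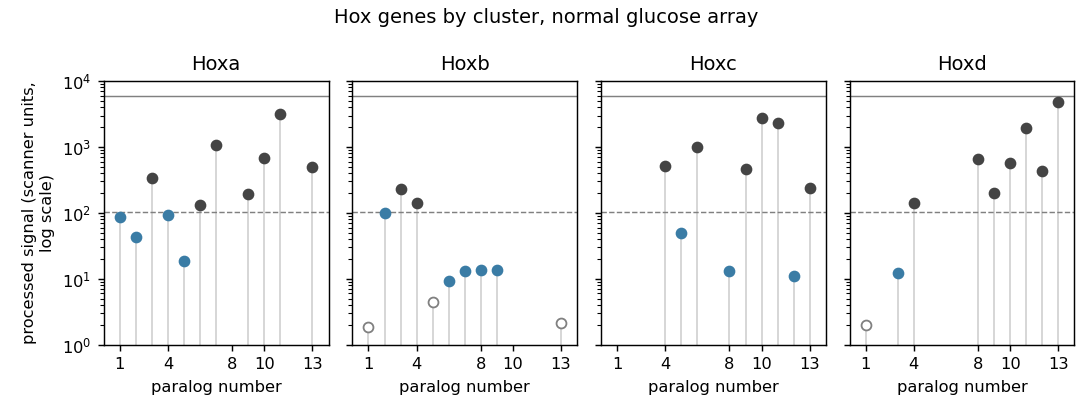
Processed signal on a log scale of 39 Hox genes on the normal glucose array by cluster and paralog number. Points are coloured by class as in the other plots, open points are not above background, and the dashed and solid lines are the median (101.8) and the 90th percentile (5966) of probes; in clusters A and D all genes with numbers 9 to 13 lie above the dashed line, and the genes of cluster B stay at or under 233.7.

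Some genes were bright on 1 probe and at background on another. Of 5512 genes with 2 or more probes, 1574 (28.6%) had probes over 4 log2 units apart. The widest range among genes with a bright probe was 16.93 log2 units for Dcc, a netrin receptor gene of neurons, with signals of 213438 and 1.71. Pigr, the epithelial receptor for secreted antibodies, read 193532 and 1.90, Sprr2a2, a gene of cornified skin, 152999 and 1.78, and Mfsd2b 145516 and 1.84. Siglech, a lectin gene of plasmacytoid dendritic cells, read 77576 and 2.05, and Slc10a1, the bile acid transporter gene of hepatocytes, 218825 and 6.55. The same held for genes with broad use, such as Arhgdia (81217 and 1.67), Tpm3 (70914 and 2.06) and Chchd2 (80892 and 2.39), and for Zfp663 (58288 and 1.81). Which of the probes reads the gene cannot be told from the files, so tissue-restricted genes that are bright on a single probe are given here as probe values only. Across the 4586 genes with exactly 2 probes, the log2 signals of both correlated at a Pearson r of 0.602 and a Spearman rho of 0.593, over genes of the same array, which are not independent replicates.

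Whole gene families sorted by function. Among families of at least 20 genes with a shared name, the lowest median percentiles were those of taste receptors (Tas2r, 10.1), Pramel (13.5), olfactory receptors (Olfr, 14.6), vomeronasal receptors (Vmn1r, 15.8) and beta-defensins (Defb, 17.0). The highest were those of the names Rpl (99) and Rps (98.1), mostly large and small ribosomal subunit proteins. Next came translation initiation factors (Eif, 89.2), cytochrome oxidase genes (Cox, 89.0) and mitochondrial ribosomal proteins (Mrpl, 86.6, and Mrps, 86.4). Of 370 Zfp zinc finger genes 358 (96.8%) were above background but only 14 (3.78%) were bright. Of 53 keratin genes 36 were above background and 1 was bright. Of the 19708 protein-coding genes 82.1% were above background and 12.2% bright, and of the 963 long non-coding RNA genes 57.4% and 1.14%. Named members of the latter, picked after their values were seen, were the imprinted gene Meg3 at 39707 (334.6 on its dimmest probe) and the nuclear paraspeckle RNA Neat1 at 16607.

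Promoters were set beside the signal classes, because vertebrate promoters fall into a CpG-rich type, common at broadly used genes, and a TATA type, common at tissue-restricted genes. Sequences of the 250 bases before the start were taken from RefSeq (GRCm38.p6) for 15776 of 19245 protein-coding genes (82.0%), those on chromosomes that the promoter table holds. A promoter was called CpG-rich with over 55% G and C and an observed over expected CpG ratio above 0.65. The TATA motif searched was TATAAA on the gene's strand, lying wholly within the window from 45 to 16 bases before the start. The sequences that follow show CpG-rich promoters of a bright and a middle gene, and TATA promoters of a bright gene and a gene not above background. Capitals mark CpG, or the TATA motif within that window. Tpt1, among the brightest genes (signal 374399), has a promoter at chr14:75845006-75845255 on the plus strand with 33 CpG. Hoxd13 (signal 4852) is the brightest patterning gene with a CpG-rich promoter among those with a single listed start. Its promoter lies at chr2:74667975-74668224, plus strand, with 31 CpG. S100a4 (signal 242950) lies at chr3:90603520-90603769, plus strand, with 2 CpG and the motif 31 bases before the start. Il1a (signal 1.53, not above background) lies at chr2:129309973-129310222 on the minus strand, with 3 CpG and the motif 32 bases before the start.
Tpt1: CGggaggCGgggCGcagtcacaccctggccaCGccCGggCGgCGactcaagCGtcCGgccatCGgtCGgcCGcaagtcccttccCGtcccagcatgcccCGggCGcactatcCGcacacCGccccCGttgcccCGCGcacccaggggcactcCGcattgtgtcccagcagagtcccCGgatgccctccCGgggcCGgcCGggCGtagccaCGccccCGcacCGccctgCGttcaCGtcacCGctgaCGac
Hoxd13: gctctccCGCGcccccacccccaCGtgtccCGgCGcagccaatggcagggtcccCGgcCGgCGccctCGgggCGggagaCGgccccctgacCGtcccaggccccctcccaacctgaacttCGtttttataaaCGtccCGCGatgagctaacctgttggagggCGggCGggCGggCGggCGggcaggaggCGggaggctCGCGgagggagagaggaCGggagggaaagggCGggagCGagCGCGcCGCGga
S100a4: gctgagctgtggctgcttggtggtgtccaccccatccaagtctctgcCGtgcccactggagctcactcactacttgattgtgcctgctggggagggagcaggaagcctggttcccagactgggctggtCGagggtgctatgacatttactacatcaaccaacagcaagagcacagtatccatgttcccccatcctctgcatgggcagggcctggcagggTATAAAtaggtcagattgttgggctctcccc
Il1a: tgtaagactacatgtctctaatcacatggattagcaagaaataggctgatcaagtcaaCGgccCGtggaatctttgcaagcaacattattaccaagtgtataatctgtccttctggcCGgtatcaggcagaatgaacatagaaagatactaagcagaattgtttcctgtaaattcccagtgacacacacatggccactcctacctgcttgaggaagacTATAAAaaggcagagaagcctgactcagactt

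The mix of promoter types differed between signal classes. CpG-rich promoters made up 50.4% of 1957 bright genes, 49.8% of 7687 genes in between, 21.4% of 3275 dim genes and 7.6% of 2857 genes not above background, beside 36.3% of all. The motif TATAAA was found at 1.53%, 1.39%, 4.92% and 5.85% of the same classes, beside 2.95% of all. The families of odour, taste and vomeronasal receptors and defensins are large and have few CpG-rich promoters. Without them the CpG-rich share was 10.7% for genes not above background and 23.7% for dim genes, and the motif shares were 7.72% and 5.30%. By steps of 10 percentiles, the CpG-rich share went from 5.77% in the lowest step to 55.7% between percentiles 80 and 90 and was 50.4% in the top step. The top step also holds bright genes with a TATA motif, such as S100a4. A match is a description of these letters, not a site, and genes of a class are not independent samples. In 2652 protein-coding genes several starts are listed, and the outermost start was used.

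**Figure D5:**
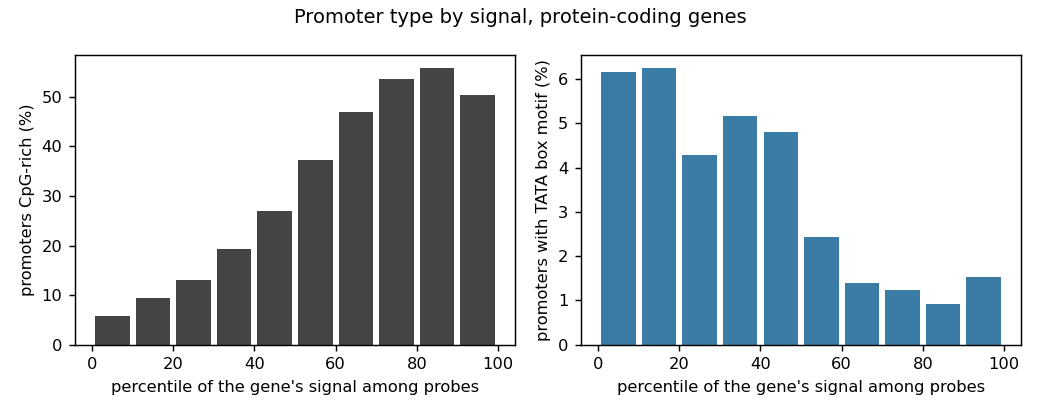
Share of CpG-rich promoters (left, in percent) and of promoters with the TATA motif (right, in percent) among protein-coding genes in steps of 10 percentiles of signal on the normal glucose array. Bars are shares of the genes in each step; the CpG-rich share climbs from 5.77% to 55.7% at percentiles 80 to 90 and the TATA share is lowest there, at 0.927%.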

How the data were processed

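Per the file headers, the array was a 1-colour Agilent design (Cy3) quantified with Feature Extraction 11.5.1.1. The deposited file holds linear intensity for each spot, with background already subtracted by the scanner software. The authors' deposited value table, also intensity, gives the mean of a probe's spots: 99.75% of its probes matched to a fraction of 0.001. Of 44397 spots, 1377 control and 110 outlier spots were left out. A probe's signal was the geometric mean over its spots. Probes were named through accessions in a RefSeq table (GRCm38.p6, names only, while the headers give mm9), and 11919 could not be tied to 1 gene. No depth applies to an array; 1 array limits the precision.

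Members and lists were chosen with earlier results of these data known. Named genes are the 30 brightest, up to 6 brightest, 3 dimmest and 8 not above background per list, defining markers, the 10 widest probe ranges, and the 10 brightest factors and ligands; a selection of these is printed, and some are not reported here. Cnn1, Mylk, Nos2, Gucy1a2, Nox4, Adra1b, Adra1d and Mcm7 were named after their values were seen. Counting was tested on simulated data. Alternatives were other background flags, a minimum signal of 100, outlier spots kept, normexp (offset 50), the deposited table, and the median or mean over probes. Tools were Python 3.11.15, numpy 2.4.6, pandas 2.3.3, scipy 1.17.1, R 4.3.3 and limma 3.58.1.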

Additional observations from a re-analysis of the deposited data

How the results depend on the processing

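Of 230 cell type genes 196 were above background, and 116 with a minimum signal of 100. The other counts pooled over all genes, over all cell type lists or over all pathway lists stayed within 1.5 times. Counts of single lists moved more often: with a minimum signal of 100, the genes above background changed by over 1.5 times in 16 of 52 lists. Examples are endothelial (32 to 17), arterial (12 to 5), macrophage (16 to 10), other leukocyte (11 to 2), neuron (11 to 7), epithelial (10 to 5), adipocyte (14 to 8), skeletal muscle (16 to 5), Wnt ligands (17 to 8) and Notch (16 to 7). With the flag for positive and significant spots it did so in 4 of 52, among them lymphatic (2 to 4) and olfactory and vomeronasal receptors (412 to 815). Counts of bright genes did so in 6 of 52 lists with the median over probes, 7 with the mean over probes above background and 1 with normexp. Genes above background numbered 12337 to 18914 (16875 in the main setting). Bright genes numbered 2449, 2442 with normexp and 1858 with the median over probes. Of 975 list genes 58 changed class with the median over probes, 37 of them no longer bright, and 25 with normexp. With the median over probes the list medians were at percentile 45 for endothelial genes, 96.6 for fibroblast genes, 35.7 (from 52.5) for Schwann cell genes and 28.6 (from 42.3) for epithelial genes. Normexp used the median signal. Gene names as the scanner file gives them were not run, because the file pairs probes with accessions only. No paired analysis was possible because there is 1 array and no test.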
